A study of Homo sapiens with 6 samples.

Results

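Caveolae are small flask-shaped pits of the plasma membrane that take part in mechanical buffering, lipid handling and endocytosis. Their coat is built from caveolins, integral membrane proteins that insert into the inner leaflet, and from cavins, soluble proteins that assemble on the caveolin scaffold. Other proteins bend or restrain the membrane at the neck of the pit. They are most abundant in endothelium, adipocytes, fibroblasts and muscle, and are usually sparser in epithelial cells. The 7 genes described here, CAV1, CAV2, CAVIN1, CAVIN2, CAVIN3, EHD2 and PACSIN2, are a hand-made list of caveola coat and neck genes, drawn up with earlier results of these data known, and no threshold on a measured value was used. All 7 have a transcript among the 35810 genes of GENCODE 44 that the files cover, and 4 of them passed the filter of at least 10 reads in at least 3 libraries that left 13737 genes for testing.

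The libraries come from SPT5-AID cells, made from DLD-1, an established colorectal adenocarcinoma line, so that SPT5 carries a degron that responds to auxin. One group of 3 libraries received a lentiviral shRNA against ARMC5 (shARMC5), the gene of an adaptor of the ubiquitin ligase CUL3, and the other group of 3 received a nontargeting shRNA (shNT). The paper used RT-qPCR and RNA-seq to check that ARMC5 mRNA was depleted, and also analysed the genes that differed. The question of this comparison is which transcripts differ between the groups. Both groups thus share the SPT5-AID genotype, lentiviral infection and selection of infected cells, and no sample label names auxin. Which of the ARMC5 shRNA constructs was used for these libraries is not given in the sources used here, and a single construct cannot be told apart from its effects on other targets. The study's methods speak of biological replicates, but neither they nor the labels say whether these were separate infections or cultures, so the P values measure the spread between these libraries. In bulk RNA, fewer cells that express a gene and less of its RNA per cell cannot be told apart.

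The depth was 26201112 to 40866478 reads on polyadenylated transcripts per library. ARMC5 itself stood at 25.2 ± 1.95 TMM-normalized CPM (reads per 1000000, SD, n = 3) in shNT and 11.9 ± 1.09 CPM (SD, n = 3) in shARMC5 cells, a log2 fold change of -1.09 (SE, the standard error, 0.08), with every shARMC5 library below every shNT library. Of the tested genes, 610 were called higher and 454 lower in shARMC5 cells, where a call is an adjusted P under 0.1 in edgeR's quasi-likelihood F test with Benjamini-Hochberg adjustment over all tested genes. With library size as the only scaling, 458 were called higher and 495 lower. The median log2 fold change over all tested genes was 0.00, and the median size of a called change was 0.20 on the log2 scale. Of 12 colorectal epithelial markers, EPCAM, CDH1, CDX2, CLDN7, KRT8, KRT18 and KRT19 were well expressed, VIL1 and MUC13 were lower, at 11.1 and 8.57 CPM in shNT cells, LGALS4 had 3 to 13 reads, CDX1 was at 0 in every library and KRT20 had no matched transcript.

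CAV1 and CAV2 lie side by side on chromosome 7, and their start regions are shown because the reads of CAV1 are divided between 2 start regions and because the 2 genes are compared with each other in the results. The windows run from 250 bases before to 50 bases after a RefSeq transcript start (GRCh38.p14, plus strand), and the capitals mark GGGCGG, the GC box bound by SP1, and its reverse complement CCGCCC. CAV2 is shown at chr7:116499488-116499787, the upstream CAV1 start at chr7:116524786-116525085 and the downstream CAV1 start at chr7:116526112-116526411.
CAV2: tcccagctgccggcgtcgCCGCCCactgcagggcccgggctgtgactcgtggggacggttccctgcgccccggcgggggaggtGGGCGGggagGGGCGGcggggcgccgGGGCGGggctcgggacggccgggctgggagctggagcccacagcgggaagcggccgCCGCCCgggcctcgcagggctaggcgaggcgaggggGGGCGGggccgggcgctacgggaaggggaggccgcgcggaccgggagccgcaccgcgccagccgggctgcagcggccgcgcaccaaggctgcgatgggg
CAV1 upstream: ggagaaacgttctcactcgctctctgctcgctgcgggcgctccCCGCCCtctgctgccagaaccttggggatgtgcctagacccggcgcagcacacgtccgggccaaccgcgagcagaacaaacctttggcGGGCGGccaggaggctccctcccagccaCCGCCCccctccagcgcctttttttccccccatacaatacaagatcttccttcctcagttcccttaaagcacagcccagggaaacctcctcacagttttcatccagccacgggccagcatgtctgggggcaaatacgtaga
CAV1 downstream: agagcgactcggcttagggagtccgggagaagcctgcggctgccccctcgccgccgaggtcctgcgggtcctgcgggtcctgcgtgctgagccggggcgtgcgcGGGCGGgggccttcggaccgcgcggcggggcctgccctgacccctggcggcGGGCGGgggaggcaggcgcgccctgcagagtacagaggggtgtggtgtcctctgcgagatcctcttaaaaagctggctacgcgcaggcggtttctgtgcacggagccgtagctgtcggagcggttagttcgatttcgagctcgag

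The CAV2 window holds 6 GC boxes and 43 CpG dinucleotides, the upstream CAV1 window 3 and 18, and the downstream CAV1 window 2 and 36. The median over all 34943 RefSeq windows of this length is 14 CpG dinucleotides, and 44.9% of them hold a GC box on either strand, so a GC box by itself does not set these windows apart. The letters TATAAA (reverse complement TTTATA), the core of a TATA box, are in none of the 3 windows and in 11.6% of all windows. GGAATG, the core motif of TEAD factors, with its reverse complement CATTCC, is likewise in none of the 3 and in 14.0% of all windows, which says only that these letters are not in these windows. Windows were available for CAV1, CAV2, CAVIN2, EHD2 and PACSIN2. Among those not shown, GGAATG or its reverse complement was in the CAVIN2 window and in some PACSIN2 windows, but not in the EHD2 window.

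Of the caveola genes 2 rose, and they are those that encode the main caveolin and the main cavin. CAVIN1 and CAV1 were each about 1.3 times as high in shARMC5 as in shNT cells, CAV2 and PACSIN2 were not called, and EHD2, CAVIN2 and CAVIN3 were at or near 0 reads in both groups. That is 2 of the 4 tested genes, or 2 of 7 listed, called higher and 0 called lower. Over all tested genes 4.44% were called higher and 7.75% either way. On the CPM scale every shARMC5 library lay above every shNT library in each of the 4 tested genes, a pattern that 12.5% of all tested genes share.

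CAV1 (ENSG00000105974, chr7:116524994-116561179, plus strand, GRCh38) encodes caveolin-1, without which most non-muscle cells form no caveolae. It stood at 45.1, 47.1 and 45.8 CPM in shNT replicates 1 to 3 and at 59.2, 64.3 and 61.3 CPM in shARMC5 replicates 1 to 3. The lowest shARMC5 library was thus well above the highest shNT library. The log2 fold change was 0.42 (SE 0.04, 95% interval 0.33 to 0.52, edgeR adjusted P = 2.19e-05), or 1.34-fold, on 1284 to 2537 reads per library. Per length, the level was 33.1 ± 2.34 TPM (SD, n = 3) in shNT and 43.3 ± 2.74 TPM in shARMC5 cells. These TPM values did not overlap between the groups either, the highest shNT library being at 35.8 TPM and the lowest shARMC5 library at 40.2 TPM.

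CAV2 (ENSG00000105971, chr7:116287380-116508541, plus strand) encodes caveolin-2, which forms mixed oligomers with caveolin-1 and depends on it to reach the cell surface. It stood at 25.2, 27.0 and 25.0 CPM in shNT replicates 1 to 3 and at 28.2, 30.2 and 28.4 CPM in shARMC5 replicates 1 to 3. The groups were apart on this scale, but only narrowly. The log2 fold change was 0.17 (SE 0.06, 95% interval 0.04 to 0.30), and with an adjusted P of 0.130 from edgeR's test the gene was not called. In TPM the groups overlapped, at 30.5 ± 1.20 TPM (SD, n = 3) in shNT and 32.3 ± 2.25 TPM in shARMC5 cells, and with an offset for transcript length the log2 fold change was 0.10.

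The plot of TPM for the 7 genes shows how far the low members lie below the others.

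**Figure D1:**
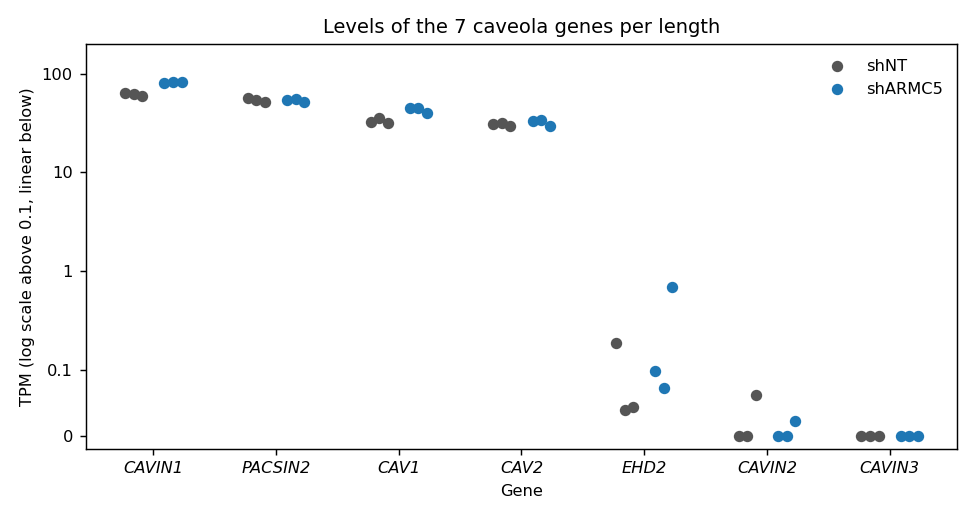
Deposited TPM of the 7 caveola genes in each library, 3 shNT and 3 shARMC5 points per gene; the vertical axis is logarithmic above 0.1 TPM and linear below. CAVIN1, PACSIN2, CAV1 and CAV2 lie between 29.2 and 82.5 TPM, EHD2 and CAVIN2 stay under 1 TPM and CAVIN3 is at 0 in all 6 libraries.

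CAVIN1 (ENSG00000177469, chr17:42402449-42423256, minus strand) encodes cavin-1, also known as PTRF, the cavin that caveola formation requires. It stood at 152, 154 and 149 CPM in shNT replicates 1 to 3 and at 195, 202 and 205 CPM in shARMC5 replicates 1 to 3. Both groups were tight, and the gap between them was many times their spread. The log2 fold change was 0.41 (SE 0.03, 95% interval 0.34 to 0.47, edgeR adjusted P = 4.79e-07), or 1.33-fold, on 4166 to 7966 reads per library. By its unadjusted P value the gene ranked 7 among the 13737 tested, while 69 genes called higher had a larger log2 fold change. In TPM the level was 62.0 ± 2.71 (SD, n = 3) in shNT and 81.3 ± 1.44 in shARMC5 cells, again without overlap.

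CAVIN2 (ENSG00000168497, chr2:191834310-191847088, minus strand), a cavin linked to membrane curvature, and CAVIN3 (ENSG00000170955, chr11:6318946-6320532, minus strand), a cavin that ties caveolae to signalling proteins, were not tested. CAVIN2 had 0, 0 and 3 reads in shNT replicates 1 to 3 and 0, 0 and 1 read in shARMC5 replicates 1 to 3. The ratio of the group totals scaled for depth (shARMC5 to shNT), 0.327 with a 95% interval of 0.00623 to 4.07 that covers counting error only, leaves its direction undetermined. CAVIN3 was at 0 reads in every library over its 4 listed transcripts. A count of 0 allows up to 3 reads, which is 0.0761 to 0.119 CPM depending on the library. At this depth the only cavin of the list with more than a few reads was thus CAVIN1, in both groups.

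EHD2 (ENSG00000024422, chr19:47713422-47743134, plus strand) encodes an ATPase that forms a ring at the caveola neck and holds the pit at the surface. It had 14, 3 and 3 reads in shNT replicates 1 to 3 and 7, 7 and 10 reads in shARMC5 replicates 1 to 3. The groups overlapped, and the depth-scaled ratio of the group totals was 1.18 with a 95% counting interval of 0.623 to 2.25. The level of 0.694 TPM in shARMC5 replicate 3, the highest of the 6, comes with 7 of its 10 reads on 2 short transcripts that had none in the other libraries.

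PACSIN2 (ENSG00000100266, chr22:42835412-43015149, minus strand) encodes an F-BAR protein that bends membrane and binds dynamin. It stood at 110, 110 and 107 CPM in shNT replicates 1 to 3 and at 111, 115 and 112 CPM in shARMC5 replicates 1 to 3. The lowest shARMC5 library was above the highest shNT library by less than the SD of either group. The log2 fold change was 0.05 (95% interval -0.02 to 0.12, edgeR adjusted P = 0.443), which bounds a rise at 1.08-fold. In TPM the groups overlapped, at 54.5 ± 2.41 (SD, n = 3) in shNT and 54.1 ± 1.80 in shARMC5 cells. The gene overlaps ARFGAP3 on the same strand, which had 683 to 1037 reads per library, and how salmon treated any shared sequence was not tested.

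**Figure D2:**
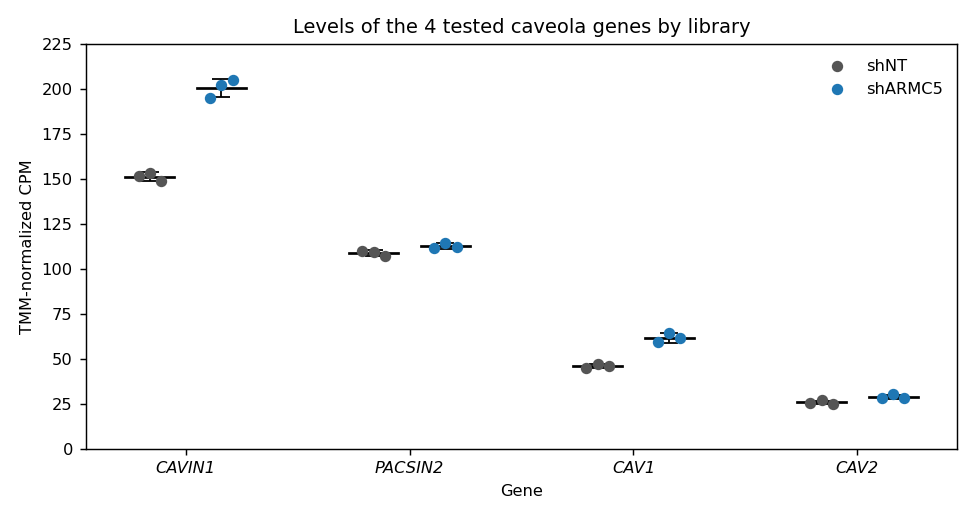
TMM-normalized CPM of the 4 tested caveola genes, one point per library, with the mean and SD of 3 libraries as bars. CAVIN1 moves from 151 to 201 CPM and CAV1 from 46.0 to 61.6 CPM, while the PACSIN2 groups, at 109 and 113 CPM, and the CAV2 groups, at 25.7 and 28.9 CPM, lie close together.

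Ordered by TPM in shNT cells, the genes ran CAVIN1, PACSIN2, CAV1, CAV2, EHD2, CAVIN2 and CAVIN3. CAV1 and CAV2 were close in shNT cells, at 33.1 ± 2.34 and 30.5 ± 1.20 TPM (SD, n = 3), with CAV2 the lower in each library. This closeness rests in part on how salmon divided the reads. In shNT cells the CAV2 transcript ENST00000343213, of 776 bases, held 19.9% of the gene's reads but 46.5% of its TPM. The libraries of CAVIN1 and PACSIN2 did not overlap. CAVIN1 lay above 80.8% of tested genes in its mean shNT TPM, PACSIN2 above 78.3%, CAV1 above 66.7% and CAV2 above 64.8%. The 3 low genes were below the filter.

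The 2 caveolins were set against each other within each library. The ratio of CAV2 to CAV1 in TPM was 0.964, 0.878 and 0.928 in shNT replicates 1 to 3 and 0.748, 0.747 and 0.739 in shARMC5 replicates 1 to 3. All shARMC5 libraries were below all shNT libraries, a difference of -0.31 on the log2 scale, with an exact two-sided permutation P of 0.1, the lowest possible for 3 against 3 libraries, or 0.2 adjusted over the 2 ratios tested. The ratio of CAVIN1 to CAV1 was 1.88 ± 0.131 (SD, n = 3) in shNT and 1.88 ± 0.131 in shARMC5 cells, with a log2 difference of 0.00 (exact permutation P = 1). Its libraries ranged from 1.74 to 2.03 with the groups interleaved. A ratio of CAVIN3 to CAVIN1 could not be tested, since CAVIN3 was at 0.

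The calls of CAVIN1 and CAV1 held under each of the 16 alternative settings, with log2 fold changes of 0.39 to 0.43 for CAVIN1 and 0.39 to 0.45 for CAV1. CAV2 ranged from 0.10 to 0.20 and was called in 1 of them, the fit with the replicate number as a term, and PACSIN2 ranged from 0.01 to 0.06 and was called in none.

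**Figure D3:**
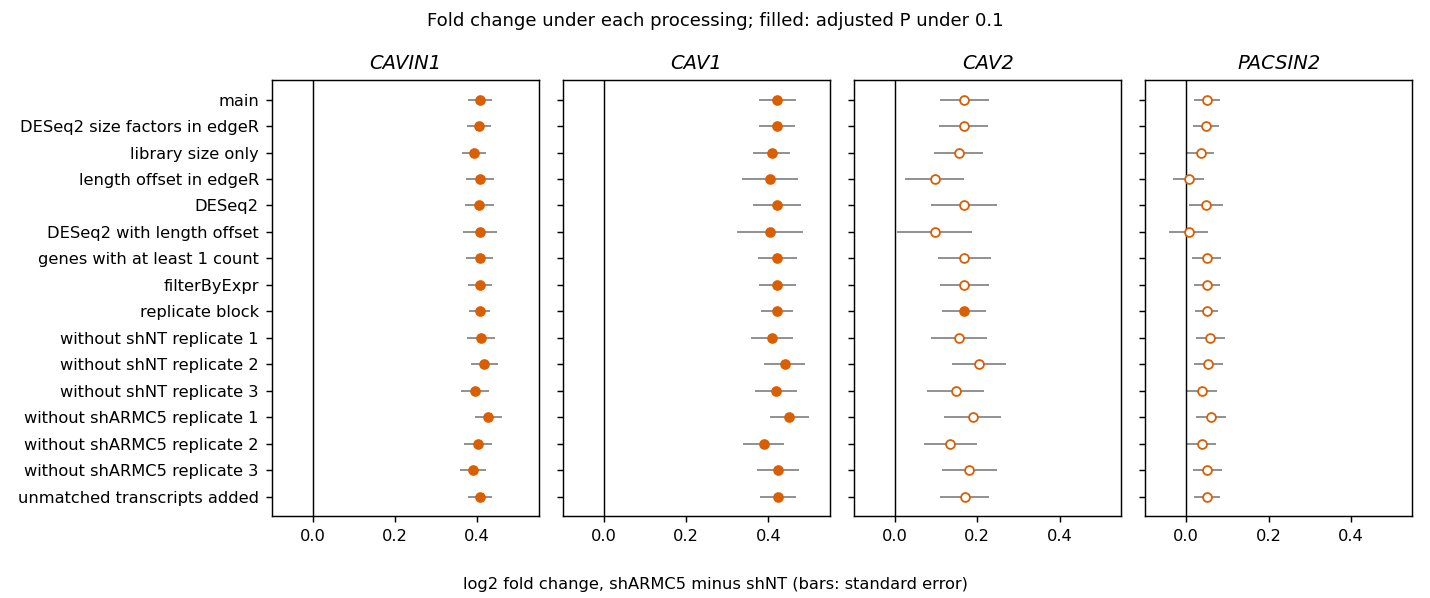
Log2 fold change of CAVIN1, CAV1, CAV2 and PACSIN2 (shARMC5 minus shNT, bars the standard error) under the main fit and each alternative that gives its own fold change; filled points have an adjusted P under 0.1. CAVIN1 and CAV1 stay filled in every row at 0.39 to 0.45, and CAV2 is filled only with the replicate block.

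The files hold 47 transcripts of the 7 genes, of which 29 had reads and 14 passed the filter on their own. None of the 14 was called, and over all transcripts 4 of 51892 were, or 0.00771%. Transcript levels also carry the error of how salmon divides shared reads, which is not estimated here. CAVIN1 has 1 listed transcript, ENST00000357037, with 2 exons and 3570 bases, and its log2 fold change of 0.41 is that of the gene, with an adjusted P of 0.119 over transcripts.

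CAV1 is known to give a long caveolin-1, the alpha form, and a shorter beta form that lacks the first residues, and the start of the coding sequence is shown for that reason. In the sequence, read from GENCODE 44 and GRCh38, the capitals mark the start codon, at base 116525063 of chromosome 7, and the ATG at codon 32, at base 116526588 in the next exon, at which the shorter form begins.
CAV1 coding start: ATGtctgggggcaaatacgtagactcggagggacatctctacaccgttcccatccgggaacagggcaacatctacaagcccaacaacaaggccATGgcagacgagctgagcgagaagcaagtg

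The transcript ENST00000341049 starts at 116525036, in the upstream region printed above, and encodes 178 residues. Its reads were 870, 863 and 632 in shNT replicates 1 to 3 and 887, 1221 and 699 in shARMC5 replicates 1 to 3, with a log2 fold change of 0.22 (SE 0.09), or 0.14 without shNT replicate 3. The transcript ENST00000393467 starts at 116526293, within the downstream region, and encodes 147 residues, which is 31 fewer. Its reads were 430, 445 and 532 in shNT replicates 1 to 3 and 687, 1032 and 609 in shARMC5 replicates 1 to 3, with a log2 fold change of 0.67 (SE 0.16, unadjusted P = 0.00659, edgeR's adjusted P over transcripts = 0.535). In CPM both transcripts were higher in every shARMC5 library than in every shNT library, and neither change passed the adjustment.

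The share of CAV1 reads on ENST00000393467 was 29.2%, 29.1% and 41.4% in shNT replicates 1 to 3 and 38.3%, 40.7% and 39.4% in shARMC5 replicates 1 to 3. The groups overlapped through shNT replicate 3, which was the highest of the 6, while the other shNT libraries were the lowest. Without that library the log2 fold change of ENST00000393467 was 0.85 (edgeR adjusted P over transcripts = 0.351), still not called. The share on ENST00000341049 was 54.9% ± 5.07 (SD, n = 3) in shNT and 47.6% ± 2.14 in shARMC5 cells, also with overlap. The transcript ENST00000614113 held 8.60% of the CAV1 reads and had a log2 fold change of 0.65 (SE 0.32), but its version and length differ from those in GENCODE 44, and without shARMC5 replicate 3 the value was 0.35.

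**Figure D4:**
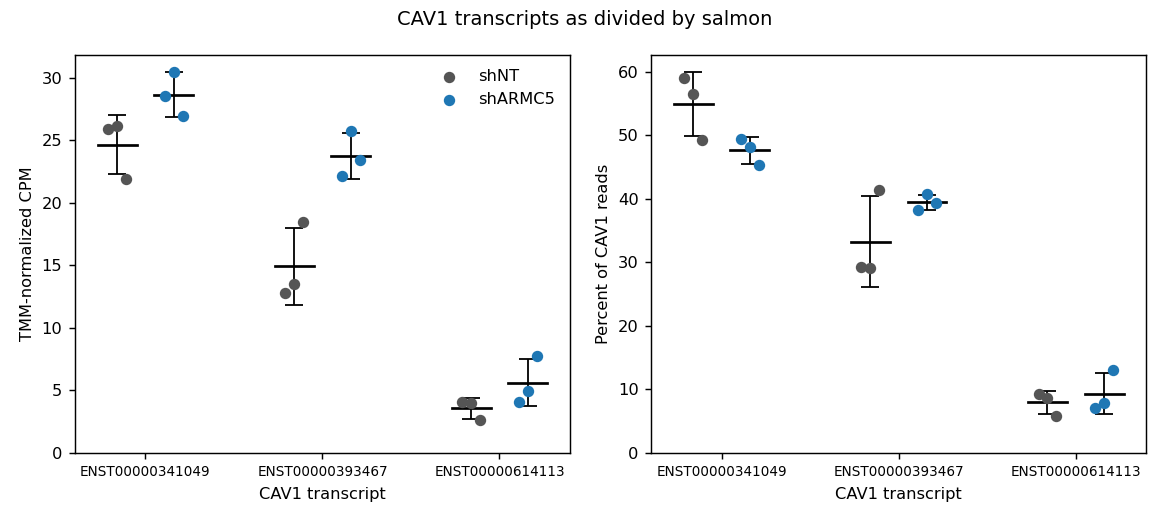
TMM-normalized CPM (left) and percent of CAV1 reads (right) of the 3 CAV1 transcripts with the most reads, one point per library, with the mean and SD of 3 libraries as bars. ENST00000393467 moves from 14.9 to 23.8 CPM, and its share in shNT replicate 3, 41.4%, lies above all shARMC5 libraries.

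For CAV2, the transcript ENST00000222693, which starts at 116499738 in the window printed above, held 73.0% of the reads and had a log2 fold change of 0.23 (SE 0.08, adjusted P = 0.920 over transcripts). ENST00000343213, with 18.6% of the reads, had -0.02 (SE 0.15). For PACSIN2, ENST00000263246 held 81.4% of the reads at a log2 fold change of 0.15 (SE 0.05, adjusted P = 0.914 over transcripts). ENST00000402229 of the same gene had 345, 281 and 348 reads in shNT replicates 1 to 3 and 202, 141 and 0 reads in shARMC5 replicates 1 to 3. The groups did not overlap, but the log2 fold change of -1.62 had an SE of 1.37 and was not called. Without shARMC5 replicate 1 it was -2.53 and without shARMC5 replicate 3 it was -1.04. ENST00000403744 of PACSIN2 was at 0 reads in the shNT libraries and in shARMC5 replicate 1 and had 115 and 108 reads in shARMC5 replicates 2 and 3, the libraries in which ENST00000402229 was lowest.

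In their order on chromosome 7 the nearest tested protein-coding genes are TES, which encodes the focal adhesion protein testin, then CAV2, CAV1 and MET, which encodes the receptor of hepatocyte growth factor. TES had a log2 fold change of 0.21 (95% interval 0.13 to 0.29, edgeR adjusted P = 0.00260) and MET of 0.15 (95% interval 0.09 to 0.21, adjusted P = 0.00428). The gene models of TES and CAV2 are 28596 bases apart, those of CAV2 and CAV1 16452 bases and those of CAV1 and MET 111016 bases. The CAV2 gene model begins at 116287380, but its transcript with the most reads, ENST00000222693, starts at 116499738, farther from TES. CAV1 thus had the highest fold change of the 4, with an interval that does not overlap those of the other 3.

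**Figure D5:**
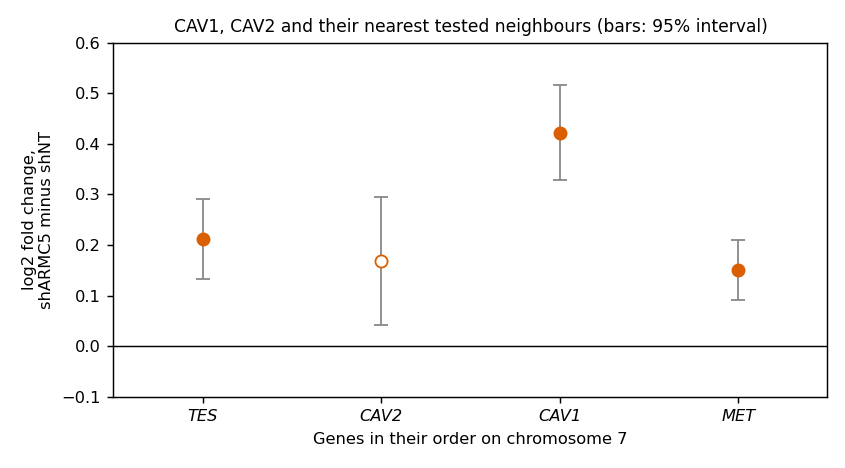
Log2 fold change (shARMC5 minus shNT) with its 95% interval for TES, CAV2, CAV1 and MET in their order on chromosome 7, filled where the adjusted P is under 0.1. All 4 point upwards, from 0.15 for MET to 0.42 for CAV1, and CAV2 at 0.17 was not called.

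CAVIN1 lies between STAT3, a transcription factor gene with a log2 fold change of 0.05, and ATP6V0A1, which encodes a subunit of the vacuolar proton pump, with 0.03, and neither was called. SMPD1, the gene of acid sphingomyelinase, is the nearest tested gene after CAVIN3 and rose by 0.40 on the log2 scale (SE 0.05, edgeR adjusted P = 0.000309), while FHIP1B on the other side had 0.07 and was not called. NABP1 and SLC39A10 beside CAVIN2, at 0.14 and -0.05, BICRA and NOP53 beside EHD2, at -0.11 and -0.04, and CYB5R3 and TTLL1 beside PACSIN2, at 0.10 and -0.38, were not called. Antisense or overlapping noncoding genes are annotated at CAVIN1, CAVIN2, CAVIN3, CAV1, CAV2 and EHD2 and were not analysed here. The library kit does not mark strand, so reads of a gene and of an antisense partner cannot be told apart.

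Of the 7 paralogues of the caveola genes, 4 were tested, 2 were called higher and 0 lower, with a median log2 fold change of 0.16. Over all tested genes 4.44% were called higher and 7.75% either way, which is the background of this count and of those of the next 3 lists. EHD1, an ATPase of recycling endosomes, stood at 108 ± 3.75 CPM (SD, n = 3) in shNT and 122 ± 2.16 CPM in shARMC5 cells, a log2 fold change of 0.18 (SE 0.03, adjusted P = 0.00564). EHD4, a related ATPase of early endosomes, rose by 0.15 on the log2 scale (SE 0.03, adjusted P = 0.0177). PACSIN3 had 0.00, CAVIN4, the cavin of muscle, had 0.50 on 16 to 32 reads, and neither was called. CAV3, the muscle caveolin, and EHD3 were at 0 reads in all 6 libraries, and PACSIN1 had at most 3 reads. Under the length offset 1 paralogue was called.

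Of 18 partners and regulators of caveolae, such as dynamins, annexins, flotillins and Src-family kinases, 17 were tested, 3 were called higher and 0 lower. Their median log2 fold change was -0.01, beside 0.00 over all tested genes. ANXA6, a calcium-dependent membrane-binding annexin, had a log2 fold change of 0.32 (SE 0.04, adjusted P = 0.000309), ANXA2, another annexin, 0.20 (SE 0.03, adjusted P = 0.000954) and DIAPH1, a formin that elongates actin filaments, 0.12 (SE 0.03, adjusted P = 0.0250). DNM2, the dynamin that cuts vesicles from the membrane, stood at 229 and 228 CPM with a log2 fold change of -0.01, and SRC, a kinase that phosphorylates caveolin-1, had -0.08 and was not called.

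Of 20 receptors and signalling proteins that have been placed in caveolae, 16 were tested and 1 was called higher, SCARB1, the receptor of high-density lipoprotein, at 0.20 (SE 0.04, adjusted P = 0.00518). None was called lower, and the median was -0.04, or 0.09 with the length offset. EGFR, at 127 and 125 CPM, had -0.02, and INSR, the insulin receptor, had -0.20 and was not called. With the length offset SCARB1 lost its call, and 139 of all tested genes were called higher, beside 610 in the main fit. In TPM, SCARB1 stood at 53.4 ± 4.07 (SD, n = 3) in shNT and 61.4 ± 9.63 in shARMC5 cells, with overlap.

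The clathrin coat, the other main coat of endocytosis, served as a comparison. Of 29 genes 28 were tested, 3 were called higher and 0 lower, and the median was 0.04. The called genes were the light chains CLTA, at 0.14 (SE 0.03, adjusted P = 0.0273), and CLTB, at 0.25 (SE 0.05, adjusted P = 0.0203), and DAB2, a cargo adaptor, at 0.68 (SE 0.09, adjusted P = 0.000266). CLTC, the heavy chain, had -0.04 and was not called. With the length offset, which called 139 genes higher over all tested genes, 0 of the 28 were called.

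Across the 6 libraries, the levels of CAVIN1 and CAV1 on the log2(CPM + 0.5) scale had a Pearson correlation of 0.989, and CAV1 ranked 17 for CAVIN1 among the 10368 tested genes that averaged 5 CPM or more. The correlation with CAVIN1 was 0.895 for CAV2 and 0.856 for PACSIN2. These points fall into the 2 groups and share the same libraries, so the values describe mainly the difference between groups, and with 6 points no more is read from them. The genes most like CAVIN1 were PLK2, a polo-like kinase gene (0.999), PRKAR2A, for a regulatory subunit of protein kinase A, LACTB, for a mitochondrial beta-lactamase-like protein, DAB2 and ISM1, for a secreted protein, with log2 fold changes from 0.12 to 0.68. Those most like CAV1 were PPIH, for a peptidyl-prolyl isomerase (0.999), OLR1, for a receptor of oxidized lipoprotein, KIFC3, for a kinesin, B4GALT1, for a galactosyltransferase, and NT5E, for the ectoenzyme CD73, with log2 fold changes from 0.10 to 0.47. All 10 were called higher, which their choice by a pattern that separates the groups nearly fixes.

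Markers of the cell types in which caveolae abound were compared as summed TPM. The 9 fibroblast markers summed to 1.17 to 1.55 TPM in shNT and 1.48 to 1.67 TPM in shARMC5 libraries, with COL3A1, LUM and THY1 at 0 in each library. The 8 endothelial markers summed to 1.09 to 1.47 TPM in shNT and 0.972 to 1.78 TPM in shARMC5 libraries, with CDH5 and KDR at 0. The 7 adipocyte markers summed to 15.6 to 20.6 TPM in shNT and 13.3 to 18.9 TPM in shARMC5 libraries, mainly from LIPE and PPARG, with ADIPOQ, PLIN1, FABP4, LEP and CIDEC at no more than 12 reads. The 8 muscle markers summed to 3.68 to 6.71 TPM in shNT and 3.62 to 4.57 TPM in shARMC5 libraries, with DES, MYOD1 and MYOG at 0.

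The 12 colorectal epithelial markers moved with the groups in part, from 7774 to 8309 TPM in shNT and from 8774 to 9089 TPM in shARMC5 libraries. Of the 9 that were tested, 3 were called higher and 1 lower, beside 4.44% of all tested genes called higher and 7.75% either way. KRT8, KRT18 and KRT19, keratins of simple epithelia, were called higher at log2 fold changes of 0.18, 0.25 and 0.11, and 2 of these markers were called higher with the length offset. VIL1, for the microvillus protein villin, was called lower at -1.30 (SE 0.11). MUC13, at -0.31, EPCAM, at 0.03, and CDH1, for E-cadherin, at 0.00, were not called. The part of these shifts in the values of CAVIN1 and CAV1 was not tested.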

How the data were processed

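Polyadenylated RNA of 3 shARMC5 and 3 shNT libraries was analysed. Per the submitters' processing notes, reads were trimmed with cutadapt 4.2 and quantified with Salmon 1.9.0 on hg38. The authors deposited, per transcript, salmon's estimated counts, not normalized between libraries, and TPM as given by salmon, with the length and effective length. Of 177456 transcripts, 165533 matched GENCODE 44 by identifier without version, and the other 11923, with 2.96 to 3.04% of the reads, were left out.

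Estimated counts were summed per gene, rounded and scaled with TMM factors of 0.992 to 1.016. Genes, and separately transcripts, were kept where 3 or more libraries had 10 counts or more. They were tested in edgeR 4.0.16 under R 4.3.3 by the robust quasi-likelihood F test on condition alone, calling Benjamini-Hochberg adjusted P values under 0.1. The common biological coefficient of variation was 0.0643. Intervals cover 95%. Those of reads per group are exact and cover counting error only. A count of 0 was taken to allow 3 reads. Ratios were tested with exact permutation (scipy 1.17.1). The gene fit was tested on simulated counts. Python 3.11.15 with pandas 2.3.3 and numpy 2.4.6 made the tables. The depth, 26201112 to 40866478 reads per library, limits the genes with few reads.

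Alternatives were an offset for transcript length, library size only, DESeq2's size factors, DESeq2 1.42.0 with that offset or without it, looser filters, a replicate term, each library left out, a threshold of 0.05 and unmatched transcripts added to the gene before them. Promoter windows came from RefSeq (GRCh38.p14).

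The genes named are the 7 members, ARMC5, called members of 4 related lists (at most 5 each way), all paralogues, the nearest tested protein-coding neighbours, and the 5 genes with at least 5 CPM most correlated with CAVIN1 and with CAV1. Marker genes, and DNM2, SRC, EGFR, INSR and CLTC, were named beside them, the latter after their values were seen. The members and lists were chosen with earlier results of these data known.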

Additional observations from a re-analysis of the deposited data

How the results depend on the processing

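CAVIN1, CAV1 and ARMC5 kept their direction and call, and PACSIN2 its lack of one, under each of the 16 alternatives. CAV2 was called only with the replicate block (0.17, adjusted P = 0.0678), where 1766 genes were called, 972 higher and 794 lower. Whether the replicate numbers pair the libraries is not stated. The deviations of same-numbered libraries from their group means correlated at 0.00, 0.01 and 0.03. Those of differently numbered libraries correlated at -0.04 to 0.03. These small values do not decide it, since they weigh genes with few reads like all others. The block called 1766 genes beside 1064 in the main fit, and it changed no other call of the 4 tested genes and ARMC5. The number of genes called fell to 234 (139 higher, 95 lower) with the length offset in edgeR, 568 (300 higher, 268 lower) with DESeq2 and that offset, and 676 (261 of them lower) at an adjusted P under 0.05, and testing genes with at least 1 count gave 745 lower. Leaving out 1 library gave 536 to 1085 genes called, 351 to 625 higher and 185 to 460 lower. The count was 536 without shNT replicate 1, 694 without shNT replicate 3 and 600 without shARMC5 replicate 2. Without 1 library the log2 fold change was 0.39 to 0.43 for CAVIN1, 0.39 to 0.45 for CAV1, 0.13 to 0.20 for CAV2, 0.04 to 0.06 for PACSIN2 and -1.15 to -1.02 for ARMC5, and that of CAV1 transcript ENST00000393467 was 0.58 to 0.85. The log2 difference of the CAVIN1 to CAV1 ratio, 0.00, was -0.0136 on the CPM scale. It was -0.0483 without shNT replicate 2, -0.0530 without shARMC5 replicate 3 and -0.0530 to 0.0525 over each library left out. That of CAV2 to CAV1, -0.31 in TPM, was -0.25 on the CPM scale. Over each library left out it was -0.34 to -0.28 in TPM. The cause of these shifts was not tested. CAVIN2, CAVIN3 and EHD2 did not pass the filter, and their low reads limit what can be said of them.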
